A study of Mus musculus with 8 samples.

Results

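Platelet surface glycoproteins and receptors were followed through 9 genes, chosen by symbol: Gp1ba, Gp1bb, Gp5, Gp9, Gp6, Itga2b, Itgb3, Clec1b and Treml1. They are 9 of the 39107 genes with a count, and all 9 passed the filter on low counts, which kept 21902 genes. The data are 8 RNA-seq libraries of long-term hematopoietic stem cells (LT-HSCs) from mouse bone marrow at 6 months of age. The floxed group (replicates 1, 3, 4 and 5) comprised 4 mice with homozygous asrij floxed alleles, and the KO group (replicates 2, 3, 4 and 5) comprised 4 asrij whole-body knockout mice. Each library came from 1 mouse, and mice of both sexes were used in the study. The study's methods define the cells sorted for RNA-seq as LSK CD150+ CD48+, while LT-HSCs for its other assays are given as LSK CD150+ CD48-. In a whole-body knockout every cell type of the mouse carries the knockout, so effects inside LT-HSCs and effects of other cells on them cannot be told apart. Asrij is the protein of the gene Ociad1.

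Platelets carry these receptors from their precursor, the megakaryocyte. The glycoprotein Ib-IX-V complex, made by Gp1ba, Gp1bb, Gp9 and Gp5, binds von Willebrand factor on injured vessel walls. Glycoprotein VI, made by Gp6, is the receptor for collagen. The integrin formed by the products of Itga2b and Itgb3 binds fibrinogen and links platelets to each other. Clec1b encodes the platelet receptor for podoplanin, and Treml1 encodes a receptor stored in platelet alpha-granules. Itga2b is also used as an early marker of megakaryocyte commitment and is found on some hematopoietic stem and progenitor cells.

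Library totals ranged from 23412829 to 44874882 gene counts. Levels are given as CPM, the count scaled to a library of fixed size, with edgeR's TMM scaling, and differences as log2 fold changes of KO over floxed with their standard error (SE). A gene was called when its adjusted p was under 0.05 in edgeR's quasi-likelihood test, over all 21902 genes, and its absolute log2 fold change was above 1.5. Values are listed in the order of the replicate numbers. Ociad1 measured 41.6, 66.9, 36.7 and 31.4 CPM among the floxed libraries and 15.2, 19.7, 12.5 and 11.7 CPM among the KO libraries, without overlap. Ociad1 reads thus remained in every KO library, and their source was not tested. Across genes, deviations from the group means tended to be opposite between libraries numbered 4 and 5 and those numbered 1 to 3 of the other genotype (correlation -0.589 to -0.34). Single genes did not all follow this, Gp5 among the floxed libraries being 1 that did not. Floxed replicate 3 stood apart from the other floxed libraries for part of the genes below. Of the stem cell markers, Kit was at 56.0 CPM in floxed and 50.9 CPM in KO libraries, on average, while Procr was at 0.344 and 0.544 CPM. Some markers of mature cells were far higher. The neutrophil marker Ngp averaged 12776 CPM in floxed and 8204 CPM in KO libraries, and the erythroid marker Hbb-bs 15201 and 53453 CPM.

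Of the 9 genes, 5 were called higher in the KO libraries (Gp5, Treml1, Gp6, Gp9 and Gp1ba) and 0 lower. Of all tested genes, 0.452% were called higher, 0.74% lower and 1.19% in either direction. By the adjusted p alone, Itga2b was also higher, which made 6 of 9 against 1.22% of all tested genes, and 0 of 9 were lower against 1.75%. All 4 KO libraries lay above all 4 floxed libraries for 7 of the 9, where 7.1% of all tested genes had this order, and 0 of the 9 had the opposite order, which 7.66% had. An unadjusted p under 0.05 was found for 7 of the 9 and for 21.8% of all tested genes, and a log2 fold change above 0 for 8 of the 9 and for 49.6%. The median log2 fold change of the 9 genes was 1.58, and that of all tested genes was -0.01. The sum of all 9 genes was 115.1 to 241.2 CPM in floxed libraries and 224.3 to 329.5 CPM in KO libraries, which overlapped. Without Gp1bb and Itgb3, the genes whose groups overlap, the sum of the other 7 was 25.3 to 43.5 CPM in floxed libraries. In KO libraries that sum was 93.7 to 127.7 CPM, and its separation follows from how the 7 were picked. In bulk RNA, a change in the number of cells of a type and a change in RNA per cell cannot be told apart.

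With the replicate number as a block, which uses the 6 libraries numbered 3, 4 and 5, edgeR called 0 of the 9 genes, and their lowest adjusted p was 0.0510. In that fit all 9 log2 fold changes were above 0 and 7 genes had an unadjusted p under 0.05. Fewer libraries and added terms for the block leave that fit less information for the test. A gene not called there may therefore still differ. A block for the 2 sets of numbers, over all 8 libraries, called 5 of the 9. The count of called genes also depended on single libraries. It was 6 without floxed replicate 3, 3 without floxed replicate 4 or KO replicate 2, 2 without floxed replicate 5, KO replicate 3 or KO replicate 4, 1 without floxed replicate 1 and 0 without KO replicate 5. In each of these 8 fits, 7 of the 9 genes had an unadjusted p under 0.05.

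**Figure D1:**
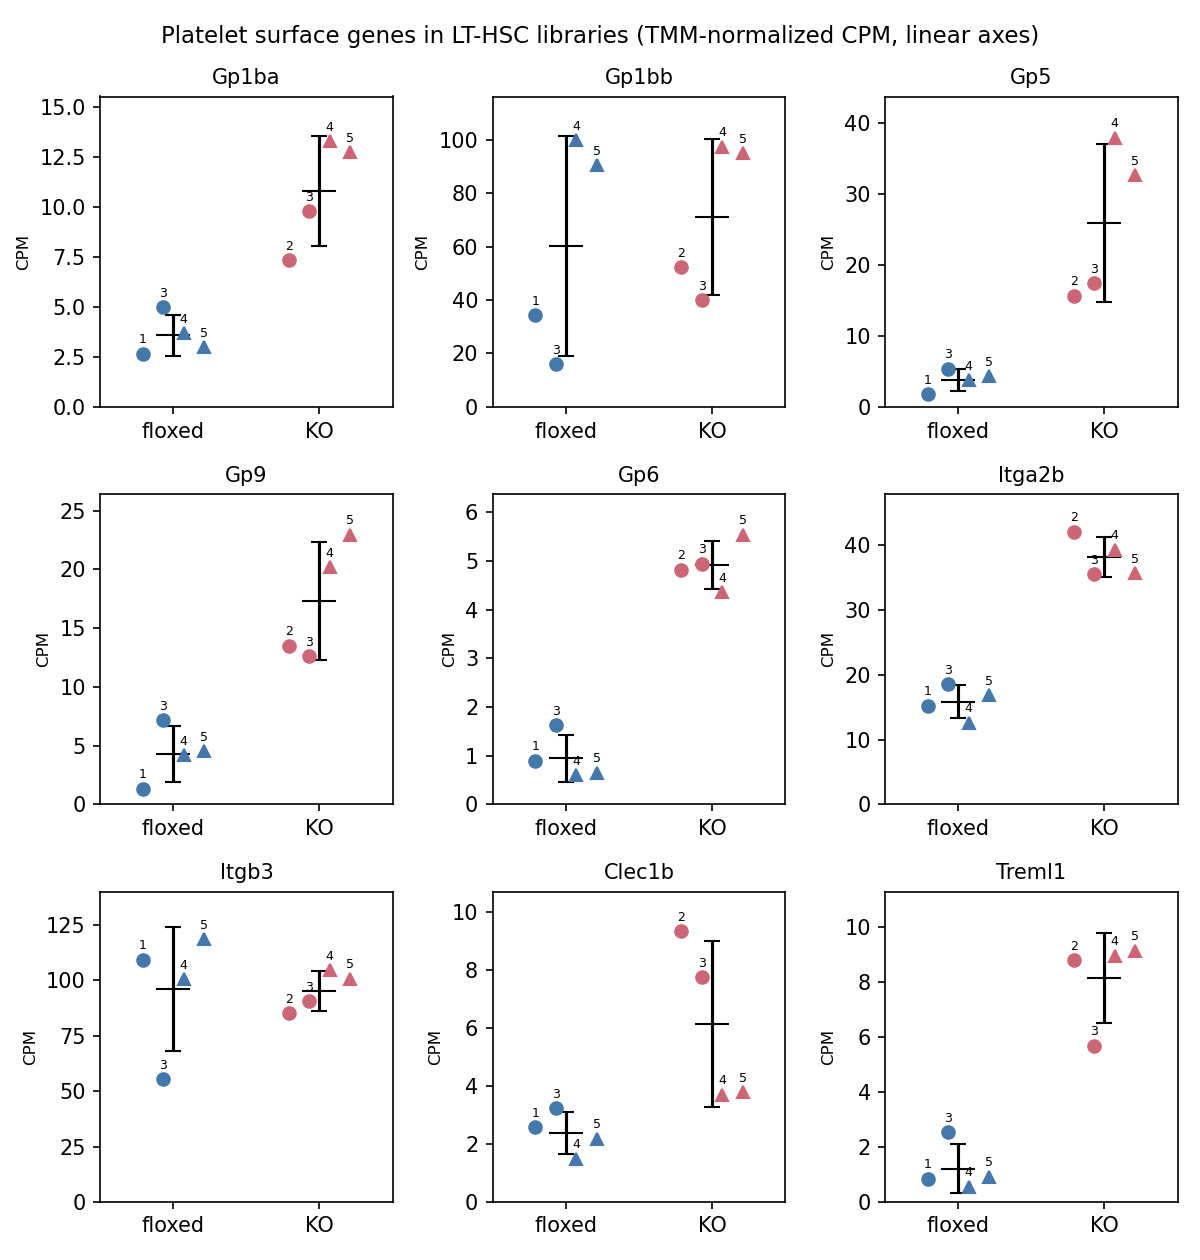
Level of each of the 9 genes in CPM (linear axis from 0) in the 4 floxed and 4 KO libraries. Circles are libraries numbered 1 to 3, triangles those numbered 4 and 5, digits give the replicate number, and bars show the mean ± SD (n = 4); Gp1bb and Itgb3 overlap between the groups and the other 7 genes do not.

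Gp5 encodes the outer subunit of the von Willebrand factor receptor, which thrombin can cleave, from 2 exons at chr16:30307685-30310779 (GRCm38, minus strand). Floxed libraries measured 1.79, 5.37, 3.74 and 4.29 CPM, whereas the KO libraries measured 15.6, 17.4, 37.9 and 32.6 CPM. The lowest KO library was above the highest floxed library, and KO replicates 4 and 5 were above KO replicates 2 and 3. The means were 3.80 ± 1.5 CPM in floxed and 25.9 ± 11.05 CPM in KO libraries (SD, n = 4 each). The log2 fold change was 2.76 (SE 0.40), or 6.79-fold, the largest of the 9 genes (edgeR adjusted p = 0.0156, replicate block adjusted p = 0.0510).

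Gp9, which encodes a small subunit that the complex needs to reach the cell surface, was at 1.34, 7.19, 4.17 and 4.52 CPM in the floxed libraries. In the KO libraries it was at 13.5, 12.6, 20.2 and 22.9 CPM. The gene has 2 exons at chr6:87778072-87779768 on the plus strand. The groups did not overlap, although floxed replicate 3 was above the other 3 floxed libraries. The log2 fold change was 2.0 (SE 0.44), or 4.005-fold, with means of 4.31 ± 2.39 and 17.3 ± 5.05 CPM (SD, n = 4 each, edgeR adjusted p = 0.0441, replicate block adjusted p = 0.115).

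Gp1ba encodes the large subunit that holds the binding site for von Willebrand factor, from 2 exons at chr11:70639122-70642036 on the plus strand. Floxed libraries had 2.66, 4.99, 3.70 and 2.99 CPM, and KO libraries had 7.35, 9.78, 13.3 and 12.8 CPM. Again the groups did not overlap and KO replicates 4 and 5 were the highest. Its means were 3.59 ± 1.03 and 10.8 ± 2.77 CPM (SD, n = 4 each) and its log2 fold change was 1.58 (SE 0.27, edgeR adjusted p = 0.0258, replicate block adjusted p = 0.0948).

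Gp1bb, which encodes the subunit linked to the Gp1ba protein by disulfide bonds, gave an answer that depended on the transcript. The transcript with the highest count (chr16:18620319-18622403, GRCm38, minus strand, 1 exon) had 34.4, 16.04, 99.8 and 90.4 CPM in floxed libraries and 52.2, 40.0, 97.3 and 94.9 CPM in KO libraries. The groups overlapped, libraries numbered 4 and 5 were the highest in both genotypes, and the log2 fold change was 0.24 (SE 0.53, edgeR adjusted p = 0.832). Of its span, 91.2% lies within Sept5, a septin gene on the same strand, so its count cannot be assigned to Gp1bb alone. Sept5 itself was at 120, 54.8, 195 and 199 CPM in floxed libraries and 106, 84.0, 163 and 167 CPM in KO libraries, with a log2 fold change of -0.12 (SE 0.39, edgeR adjusted p = 0.888).

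The shorter Gp1bb transcript (chr16:18620317-18621640, 2 exons) lies in the part of the span farther from the start of the longer one. It had 3.27, 3.37, 7.27 and 8.20 CPM in floxed libraries and 12.2, 10.9, 38.1 and 35.5 CPM in KO libraries. Every KO library was above every floxed library, as for the other genes of the complex. Its log2 fold change was 2.14 (SE 0.50), or 4.39-fold, with an edgeR adjusted p of 0.0522, so it was not called. Its counts were 10.02% of those of the longer transcript in floxed libraries and 32.99% in KO libraries. The stretch that belongs only to the longer transcript (chr16:18621641-18622403) averaged 54.6 ± 38.7 CPM for floxed and 46.9 ± 14.9 CPM for KO libraries (SD, n = 4 each), and the groups overlapped. The counted Sept5 transcript covers 86.0% of the span of the shorter transcript, and the other 4 of the 5 annotated Sept5 transcripts do not reach it, so its counts may also hold Sept5 reads. The shorter transcript was looked at after the counts had been seen.

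**Figure D2:**
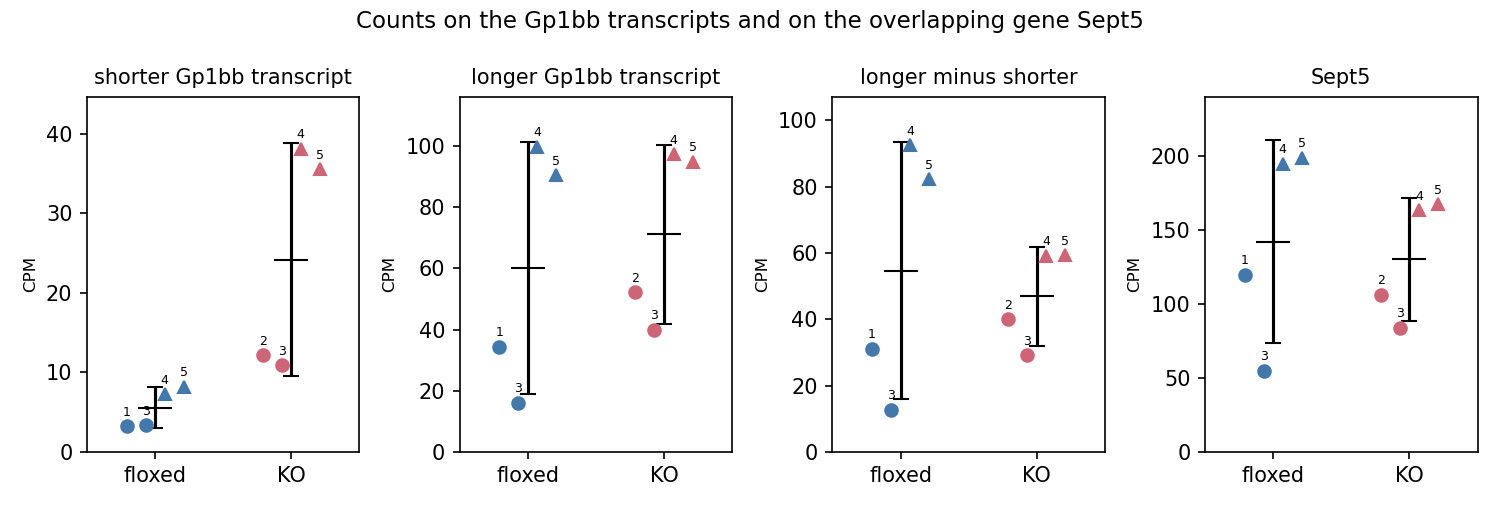
Level in CPM (linear axes from 0) of the longer and the shorter Gp1bb transcript, of the stretch only the longer one covers and of Sept5, in 4 floxed and 4 KO libraries. Points and digits are libraries by replicate number and bars are the mean ± SD (n = 4); only for the shorter transcript do all KO libraries lie above all floxed libraries.

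Gp6, the collagen receptor gene, had low levels in floxed libraries, at 0.90, 1.63, 0.60 and 0.65 CPM. In KO libraries it had 4.82, 4.94, 4.36 and 5.54 CPM. It has 8 exons at chr7:4363965-4397744 on the minus strand. The KO values lay close together and well above the highest floxed value. The log2 fold change was 2.35 (SE 0.35), or 5.11-fold, with means of 0.942 ± 0.474 and 4.92 ± 0.486 CPM (SD, n = 4 each, edgeR adjusted p = 0.0162, replicate block adjusted p = 0.0895).

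The fibrinogen receptor genes, which are both on chromosome 11 (Itga2b with 30 exons at chr11:102453297-102469883 on the minus strand, Itgb3 with 15 exons at chr11:104608000-104670476 on the plus strand), differed from each other. Itga2b, the alpha subunit, was at 15.2, 18.6, 12.6 and 16.8 CPM in floxed libraries and at 42.0, 35.5, 39.3 and 35.7 CPM in KO libraries. The groups did not overlap, and the spread within each was small. Its log2 fold change of 1.27 (SE 0.16), or 2.41-fold, had the lowest adjusted p of the 9 genes (edgeR adjusted p = 0.00803) but was below the limit of 1.5. With the replicate block the adjusted p was 0.0885.

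Itgb3, the beta subunit, which also pairs with another alpha chain outside platelets, was at 109, 55.5, 100.5 and 119 CPM in floxed libraries and at 85.2, 90.6, 105 and 100.8 CPM in KO libraries. The groups overlapped, and floxed replicate 3 was the lowest library. The means were 96.0 ± 28.0 and 95.3 ± 8.92 CPM (SD, n = 4 each), with a log2 fold change of -0.01 (SE 0.23, edgeR adjusted p = 0.986), whose sign changed with the processing. Per kilobase of spliced transcript, Itgb3 was at 16.6 CPM in floxed and 16.5 CPM in KO libraries, and Itga2b at 4.59 and 11.1 CPM.

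Clec1b, the podoplanin receptor gene (6 exons, chr6:129397297-129405333, plus strand), was at 2.58, 3.23, 1.49 and 2.18 CPM in floxed libraries and at 9.33, 7.75, 3.69 and 3.77 CPM in KO libraries. The groups did not overlap, but KO replicates 2 and 3 were above KO replicates 4 and 5, the reverse of Gp5, Gp9 and Gp1ba. Its log2 fold change was 1.36 (SE 0.38), or 2.57-fold, and was not called (edgeR adjusted p = 0.0762).

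Treml1, the gene of the alpha-granule receptor (6 exons, chr17:48359916-48367176, plus strand), was at 0.84, 2.53, 0.55 and 0.92 CPM in floxed libraries and at 8.79, 5.67, 8.94 and 9.13 CPM in KO libraries. Floxed replicate 3 was the highest floxed library and KO replicate 3 the lowest KO library, and the groups did not overlap. Its log2 fold change was 2.71 (SE 0.45), or 6.53-fold, with means of 1.21 ± 0.895 and 8.13 ± 1.65 CPM (SD, n = 4 each, edgeR adjusted p = 0.0239, replicate block adjusted p = 0.122). Of the floxed libraries, the lowest held 13 counts of Treml1 and the highest 134.

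**Figure D3:**
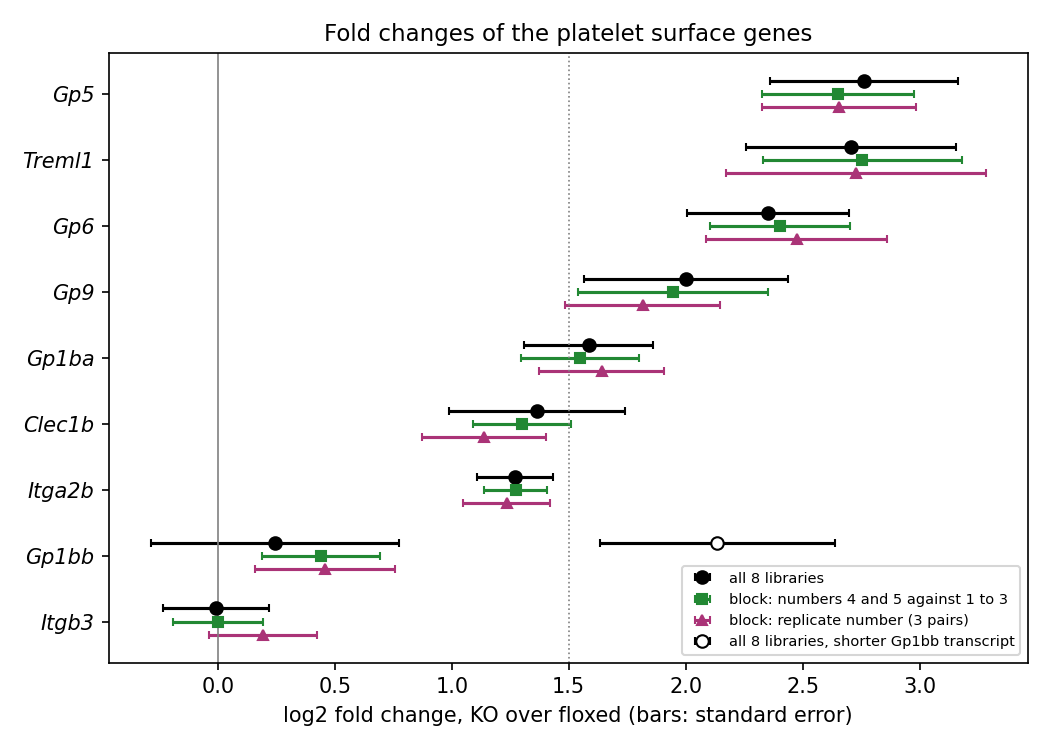
Log2 fold change of KO over floxed for the 9 genes from edgeR, with bars of 1 SE and a dotted line at the limit of 1.5. The values run from -0.01 for Itgb3 to 2.76 for Gp5.

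In the exact two-sided permutation test of the mean CPM over 70 labelings of 4 against 4, p was 0.0286 for each of the 7 genes without overlap, which is the smallest value it can give. For genes without overlap the test can give no other value. It was 0.571 for Gp1bb and 1 for Itgb3. Within the libraries numbered 1 to 3 and within those numbered 4 and 5, all 7 genes were higher in KO. Their lack of overlap requires this order, and no test was made there. On the log2(CPM + 1) scale the difference of group means was 2.05 and 2.85 for Gp5, 1.66 and 2.54 for Treml1, 1.16 and 1.30 for Itga2b and 1.29 and 0.75 for Clec1b, the lower numbers first. It was larger in libraries numbered 4 and 5 for 6 of the 9 genes. Floxed replicate 3 was the highest floxed library for 7 of the 9 genes, where 37.7% of all tested genes had this order, and the lowest for Gp1bb and Itgb3.

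Per kilobase of spliced transcript, the order of the mean levels in floxed libraries was Gp1bb at 28.8 CPM, Itgb3 at 16.6, Gp9 at 4.89, Itga2b at 4.59, Clec1b at 2.18, Gp5 at 1.73, Gp1ba at 1.32, Treml1 at 0.982 and Gp6 at 0.160 CPM, the first sharing counts with Sept5. Counts cover introns as well, so this order is approximate between genes that differ in intron length. The libraries of neighbours overlapped except between Itgb3 and Gp9, between Itga2b and Clec1b and between Treml1 and Gp6. In KO libraries the order was Gp1bb at 34.1, Gp9 at 19.6, Itgb3 at 16.5, Gp5 at 11.8, Itga2b at 11.1, Treml1 at 6.59, Clec1b at 5.63, Gp1ba at 3.98 and Gp6 at 0.833 CPM per kilobase. There the libraries of neighbours overlapped except between Itga2b and Treml1 and between Gp1ba and Gp6.

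The stretches just before the start of the 5 called genes were searched for motifs of GATA and ETS factors, which are known regulators of megakaryocyte genes. The stretches are the 250 bases before the RefSeq start (GRCm38.p6), 5′ to 3′ on the strand of the gene. Capitals mark AGATAA or TGATAA, and GGAAG, on either strand. The Gp1ba stretch is chr11:70638872-70639121 on the plus strand, Gp5 is chr16:30310782-30311031 on the minus strand, Gp6 is chr7:4397745-4397994 on the minus strand, Gp9 is chr6:87777820-87778069 on the plus strand and Treml1 is chr17:48359666-48359915 on the plus strand.
Gp1ba: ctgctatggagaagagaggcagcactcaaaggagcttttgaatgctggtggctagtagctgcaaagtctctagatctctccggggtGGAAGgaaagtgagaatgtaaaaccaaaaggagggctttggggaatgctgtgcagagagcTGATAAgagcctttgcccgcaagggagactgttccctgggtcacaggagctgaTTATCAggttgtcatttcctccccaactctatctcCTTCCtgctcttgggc
Gp5: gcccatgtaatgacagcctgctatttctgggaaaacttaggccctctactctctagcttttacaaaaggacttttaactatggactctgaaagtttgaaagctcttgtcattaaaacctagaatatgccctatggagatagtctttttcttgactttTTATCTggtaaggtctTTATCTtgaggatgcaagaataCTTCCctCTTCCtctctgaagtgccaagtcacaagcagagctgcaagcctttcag
Gp6: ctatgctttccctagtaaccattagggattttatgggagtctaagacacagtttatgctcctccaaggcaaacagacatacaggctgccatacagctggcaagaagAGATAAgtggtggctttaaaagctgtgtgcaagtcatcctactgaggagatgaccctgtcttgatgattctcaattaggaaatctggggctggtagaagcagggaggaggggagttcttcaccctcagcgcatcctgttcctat
Gp9: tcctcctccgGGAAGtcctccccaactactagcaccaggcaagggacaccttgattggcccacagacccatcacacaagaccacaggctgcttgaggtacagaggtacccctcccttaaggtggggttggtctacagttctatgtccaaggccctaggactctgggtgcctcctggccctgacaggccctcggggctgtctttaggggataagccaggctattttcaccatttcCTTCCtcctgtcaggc
Treml1: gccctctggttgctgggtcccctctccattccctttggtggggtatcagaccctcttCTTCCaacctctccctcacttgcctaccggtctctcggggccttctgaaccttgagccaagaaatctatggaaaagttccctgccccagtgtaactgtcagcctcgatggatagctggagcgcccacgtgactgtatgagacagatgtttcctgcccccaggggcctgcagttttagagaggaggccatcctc

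Gp1ba held AGATAA or TGATAA at 104 and 51 bases before the start, Gp5 at 93 and 77 and Gp6 at 144, while Gp9 and Treml1 held neither. Of the 8 genes with an entry, which leaves out Itgb3, 4 held this motif, against 16.6% of 32851 promoters of the same length. GGAAG was found in 6 of 8, against 64.1%. A match of letters is a description and does not show binding.

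Of 23 listed genes of other receptors of the platelet surface, 3 were called higher and 0 lower. Of all tested genes, 0.452% were called higher and 0.74% lower. An unadjusted p under 0.05 was found for 11 of the 23, 8 higher and 3 lower, and 14 had a log2 fold change above 0. The lowest log2 fold change was -0.82 for P2ry12 (SE 0.26, edgeR adjusted p = 0.106), with all KO libraries below all floxed libraries. The median log2 fold change of the 23 was 0.20. Mpig6b, which encodes an inhibitory receptor of megakaryocytes and platelets, was at 0.66, 1.95, 0.77 and 0.57 CPM in floxed and 6.15, 6.89, 9.12 and 6.96 CPM in KO libraries (log2 fold change 2.85, SE 0.41, edgeR adjusted p = 0.0143). F2rl2, a thrombin receptor gene, was at 2.40, 2.57, 3.19 and 2.34 CPM in floxed and 7.43, 7.75, 8.27 and 8.80 CPM in KO libraries (1.62, SE 0.19, adjusted p = 0.00602 with edgeR). Both genes separated the groups without overlap. Esam, an adhesion molecule of the platelet and endothelial surface, rose by 1.59 (SE 0.25, edgeR adjusted p = 0.0211). With the replicate block edgeR called 0 of the 23, and the adjusted p was 0.0770 for Mpig6b, 0.0750 for F2rl2 and 0.117 for Esam. Selp, the P-selectin gene, was at 6.89 ± 2.07 and 7.26 ± 0.274 CPM (SD, n = 4 each, log2 fold change 0.08, SE 0.24, edgeR adjusted p = 0.878).

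Of 17 genes that carry signals from these receptors, edgeR, limma-voom and DESeq2 each called 0. In edgeR 5 of the 17 had an unadjusted p under 0.05, 2 higher and 3 lower, against 21.8% of all tested genes. The median log2 fold change was -0.18. Fcer1g, whose product is the signalling chain of glycoprotein VI and is shared with receptors of other blood cells, was at 215 ± 90.8 and 173 ± 20.8 CPM (SD, n = 4 each, log2 fold change -0.32, SE 0.32, edgeR adjusted p = 0.618). The largest differences were 0.65 for Lat (SE 0.24), an adaptor below glycoprotein VI, and -0.62 for Flna (SE 0.22), the filamin that anchors the Gp1ba protein. Lyn and Prkcq, both kinases, differed by -0.52 and 0.49.

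Of 11 genes of ligands, 7 were tested, and Thbs1 was the only one called, where 0.452% of all tested genes were called higher and 0.74% lower. Fga, Fgb, Fgg and Vtn did not pass the filter. Thbs1, the thrombospondin gene, was at 29.5 ± 6.13 and 95.8 ± 4.88 CPM (SD, n = 4 each, log2 fold change 1.70, SE 0.17, edgeR adjusted p = 0.00196). Vwf, the von Willebrand factor gene, was at 4.80, 21.4, 4.38 and 6.67 CPM in floxed and 20.2, 18.8, 22.4 and 23.2 CPM in KO libraries. Floxed replicate 3 lay among the KO libraries, and the log2 fold change was 1.17 (SE 0.47, edgeR adjusted p = 0.182). Without floxed replicate 3 it was 2.01 (adjusted p = 0.000467 with edgeR). Fn1, the fibronectin gene, and Pdpn, the podoplanin gene, had log2 fold changes of -0.96 and -1.01 and were not called.

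Genes of megakaryocyte granules and cytoskeleton moved with the receptors in part. Of 16, 5 were called higher (Ppbp, Clu, Pf4, Thbs1 and Nrgn) and 0 lower, with a median log2 fold change of 1.04. An unadjusted p under 0.05 was found for 13 of the 16, 9 higher and 4 lower, against 21.8% of all tested genes. The lowest log2 fold change was -0.96 for F13a1 (SE 0.30, edgeR adjusted p = 0.107). Over all tested genes, 0.452% were called higher and 0.74% lower. Ppbp, a platelet chemokine gene, was at 6.33, 29.1, 7.74 and 5.44 CPM in floxed and 77.3, 89.8, 68.2 and 66.4 CPM in KO libraries (2.62, SE 0.52, edgeR adjusted p = 0.0336, replicate block adjusted p = 0.0643). Clu, which encodes the secreted chaperone clusterin, rose by 2.28 (SE 0.32, edgeR adjusted p = 0.0125, replicate block adjusted p = 0.0637) and Pf4, another chemokine gene, by 2.27 (SE 0.26, edgeR adjusted p = 0.00534). With the replicate block 3 of the 16 were called, which were Pf4, Thbs1 and Nrgn. Of 11 genes of transcription factors of this lineage, Gata1 was the only one called (log2 fold change 1.67, SE 0.34, edgeR adjusted p = 0.0372, replicate block adjusted p = 0.141). Its cofactor gene Zfpm1 was at 1.52 (SE 0.53, edgeR adjusted p = 0.136), and Gfi1b and Tal1 were at 1.03 and 0.83, none of them called. Of the 11, 6 had an unadjusted p under 0.05, 4 higher and 2 lower. The 2 lower ones were Fli1 and Ets1, at -0.45 and -0.42, neither called. All KO libraries lay above all floxed libraries for 1 of the 11 and below them for 2, against 7.1% and 7.66% of all tested genes.

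**Figure D4:**
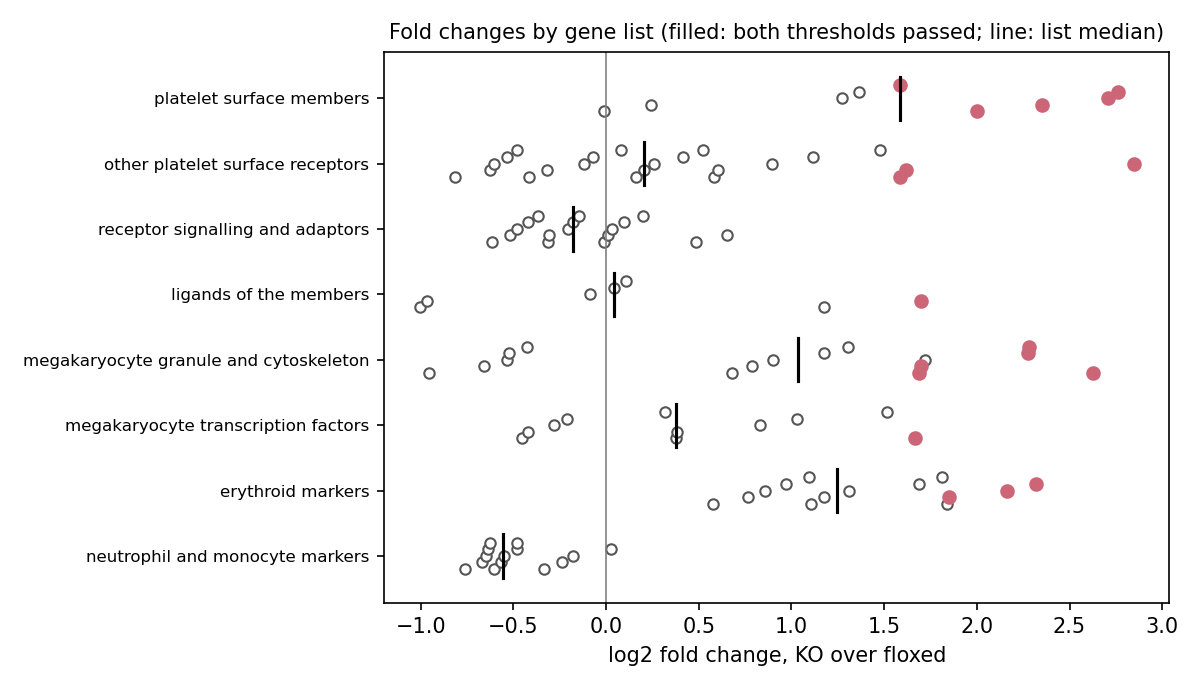
Log2 fold change of KO over floxed for each gene of the 9 receptors and of the lists described in the text, as points, filled where called, with a line at the median of each list. The median is 1.58 for the 9 receptors, 0.20 for other receptors, -0.18 for signalling genes, 0.04 for ligands, 1.04 for granule and cytoskeleton genes and 0.37 for transcription factors.

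Erythroid markers moved in the same direction as the receptors. All 14 had log2 fold changes above 0, against 49.6% of all tested genes, and 3 were called higher, against 0.452%. With the replicate block edgeR called 0 of them, with 12 at an unadjusted p under 0.05 and a lowest adjusted p of 0.141. Their sum was 28299 CPM in floxed replicate 1, 71778 CPM in floxed replicate 3 and 52202 and 52083 CPM in floxed replicates 4 and 5. It was 124040 to 296840 CPM in KO libraries, with replicates 4 and 5 the highest. Their part in the result was not tested. With haemoglobin genes left out before scaling, 5 of the 9 receptors were called. That fit changes the scaling only, and not which cells the libraries came from. Neutrophil and monocyte markers summed to 17506 to 54837 CPM in floxed libraries, with floxed replicate 3 the lowest, and to 26217 to 32974 CPM in KO libraries. Of these 14, 1 had a log2 fold change above 0, with a median of -0.56. EdgeR called 0 of the 14, with 2 at an unadjusted p under 0.05. Stem cell markers summed to 88.9 to 110.8 CPM in floxed and 97.6 to 113.6 CPM in KO libraries. Of the 9 tested, 5 had a log2 fold change above 0 and edgeR called 0, with 2 at an unadjusted p under 0.05. Of all tested genes, 21.8% had an unadjusted p under 0.05 in the fit without a block.

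Of the remaining marker lists, 1 of 12 B and plasma cell markers was called higher and 1 lower. For T and NK cells 1 of 11 markers was called lower, and for basophils and mast cells 1 of 7. Log2 fold changes were above 0 for 10 of the 12, 3 of the 11 and 0 of the 7, against 49.6% of all tested genes. Over all tested genes, 0.452% were called higher and 0.74% lower. With the replicate block edgeR called 0 in each of these 3 lists, with 7, 5 and 2 at an unadjusted p under 0.05. For endothelium and stroma, edgeR without a block called 0 of 8, and 3 had an unadjusted p under 0.05, against 21.8% of all tested genes. Of these 8, 6 had a log2 fold change above 0.

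The genes whose profile over the 8 libraries was closest to the mean profile of the 9 receptors were Snx15, Bcl2l1, Entpd4, Entpd4b and Zfp341. The measure was the root mean square difference of centred log2(CPM + 1) over 8 libraries, which was 0.0959, 0.105, 0.110, 0.118 and 0.119, among 13684 genes compared. The receptors themselves lay between 0.202 for Itga2b and 0.909 for Gp1bb. Bcl2l1, whose product keeps platelets and erythroid cells alive, was at 131 ± 24.0 and 356 ± 73.6 CPM (SD, n = 4 each, log2 fold change 1.44, edgeR adjusted p = 0.0164, replicate block adjusted p = 0.105). Entpd4 and Entpd4b are near-identical copies, so their counts are uncertain.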

How the data were processed

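RNA-seq reads of 8 libraries were, per the labels and the study's methods, checked with FastQC, trimmed with Trim Galore and aligned to GRCm38/mm10 reference transcripts with Bowtie2, and the authors deposited raw counts for 138930 transcripts in each library. The tool that counted reads and its use of strand are not given in the sources used here. All 8 files hold whole numbers of at least 0. In 7 of the files tabs part the columns despite a csv name, so an automatic check could not read them and they are recorded as another unit, although the deposited values are counts in all 8.

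GENCODE M21 gave the gene of 138789 transcripts, and each gene took the count of the transcript whose total across libraries was highest. Counts cover the genomic span of a transcript and can be shared by overlapping genes. The quasi-likelihood test of edgeR 4.0.16 (glmQLFit, glmQLFTest) was run under R 4.3.3 after filterByExpr and TMM scaling, and p-values of the 21902 genes left were adjusted by Benjamini-Hochberg. The thresholds are those of the study's methods. Exact permutation tests, promoters (RefSeq) and figures were made with Python 3.11.15, numpy 2.4.6, scipy 1.17.1 and pandas 2.3.3. Library totals were 56661356 to 120858975 transcript counts. The fits were tested on simulated data.

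Replicate numbers come from the library titles. The mice are different, but same-numbered libraries deviated together in all 3 pairs (correlation 0.374 to 0.579 across genes). Libraries of other numbers within 1 to 3 or within 4 and 5 did so too (0.346 to 0.603). These ranges overlap, so they show a shared pattern within each set of numbers and do not single out pairs of the same number. The numbers were used as a block in a second fit, and the sets of numbers as a block in another. Each library is 1 mouse.

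The 9 genes and the lists were chosen with earlier results of these data known. Named are Ociad1, the 9 genes, of each other list the 4 genes with the largest change and Vwf, Fcer1g, Selp and Pf4, with 1 item that the rule names not reported here, the 5 genes with the most similar profile, and markers given by level. Sept5, the called list genes beyond the first 4, and P2ry12, F13a1, Fli1 and Ets1 were named after their values were seen. Alternatives were other normalizations, filters, tests (limma 3.58.1, DESeq2 1.42.0), sums over transcripts, haemoglobin or overlapping genes left out, blocks and single libraries left out. The shorter Gp1bb transcript was chosen as an alternative after seeing the data.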

Additional observations from a re-analysis of the deposited data

Results flagged for a closer look

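Among 74 groups of 4 libraries (37 genes), 5 had 1 library far from the other 3 on the log2(CPM + 1) scale by Dixon's criterion, where chance flags about 1 in 20 groups, or 3.7 of 74. Treml1 was at 2.737 in KO replicate 3 and at 3.291 to 3.341 in the other KO libraries. Floxed replicate 3 stood apart for 3 genes. Lyn was at 7.331 there, against 8.055 to 8.175, Thbs1 at 5.308 against 4.748 to 4.832, and Tal1 at 7.816 against 6.367 to 6.525. Entpd4b was at 2.600 in floxed replicate 1 and at 2.879 to 2.917 in the other floxed libraries.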

How the results depend on the processing

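For the 7 receptor genes whose groups do not overlap, the log2 fold change was between 1.07 and 3.39 in all 131 fits under the alternatives. These genes were picked by that lack of overlap, so a value above 0 was nearly fixed in advance and is no separate support. Of all tested genes, 261 were called, against 503 with DESeq2, 521 with the block for number sets, 651 by adjusted p alone and 51 to 857 with 1 library left out. Scaling by library totals only, which moves the median of all genes from -0.01 to -0.20, called 3 of the 9 receptors, 1 other receptor, 0 ligands, 3 granule and cytoskeleton genes and 0 transcription factors, where 5, 3, 1, 5 and 1 were called. Leaving out overlapping genes, which removes Gp1bb, Gp6, Itga2b and Ociad1 from the table in part through transcripts with few counts, left 4 genes with an adjusted p under 0.05 among the receptors and Ociad1, against 7, with 1 other receptor and 0 ligands called. DESeq2 called 2 transcription factors.

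With the replicate block, 44 genes, 0 of the 9 receptors, 0 other receptors, 3 granule and cytoskeleton genes and 0 transcription factors were called, and 1 of the 9 receptors and Ociad1 had an adjusted p under 0.05, which was Ociad1. This pairing uses 6 libraries, which leaves less information for the test than the main fit has. The calls it changed among the genes and lists named are printed in the report.

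With 1 library left out, the called receptors numbered 0 to 6, the receptors and Ociad1 with an adjusted p under 0.05 numbered 1 to 8, other receptors 1 to 4, ligands 1 to 4, granule and cytoskeleton genes 3 to 8 and transcription factors 0 to 2. The highest of each was without floxed replicate 3. The sign of small differences was not stable. Gp1bb ranged from -0.068 without floxed replicate 3 to 0.60 without floxed replicate 4. Itgb3, at -0.01, was at 0.017 without a filter, 0.0053 with a CPM filter, 0.029 with limma-voom, 0.0087 without overlapping genes, 0.19 with the replicate block, 0.00042 with the block for number sets and -0.19 to 0.11 with 1 library left out. Selp, at 0.08, was at -0.092 with library totals, -0.020 with sums over transcripts and -0.082 to 0.26 with 1 library left out. The cause of these changes was not tested. Low counts limit Treml1 and Gp6 in floxed libraries.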
